A study of Danio rerio with 5 samples.

Results

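The genes described here encode the proteasome, its activators and its assembly factors. They are the rows of an expression table of zebrafish larvae whose gene symbol begins with psm, a letter from a to g and a digit. There were 55 such rows among the 21854 genes listed. They fell into 7 inducible subunits (psmb8a, psmb9a, psmb10, psmb12, psmb13a, psme1 and psme2), 46 constitutive members and 2 others. Those others were psmb11b, whose mammalian counterpart is a thymus subunit, and psmc3ip, a meiotic recombination factor whose symbol has the same form but which is not a proteasome subunit. The genes psma2b, psmb11a, psmd2 and psme3ip1 are not analysed here.

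The proteasome is the barrel-shaped protease that degrades proteins tagged with ubiquitin. Its core particle is built of outer rings of α subunits (psma genes) and inner rings of β subunits (psmb genes), and it is capped by a regulatory particle of ATPases (psmc genes) and non-ATPase subunits (psmd genes). In vertebrates, interferon induces alternative catalytic β subunits that replace the constitutive ones in newly assembled cores. The resulting immunoproteasome, often together with an activator made of psme1 and psme2 products, generates peptides for display on MHC class I molecules.

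The study compared whole larvae at 2 weeks after fertilization that were wild type or homozygous for mk22, a deletion allele of zbtb24. ZBTB24 is a zinc finger protein mutated in ICF syndrome, and the study asked what the loss of the gene does to gene expression. Per the study's methods, wild-type fish were of the AB background and the allele removes coding sequence of the gene. Each library was a pool of 10 larvae, and the 5 used here were 2 labelled WT and 3 labelled Mutant, where the series text describes 3 pools per genotype. The 2 libraries labelled WT are called WT 2 and WT 3 after their columns. Their sample titles are WT1A and WT2A, so which title belongs to which column is uncertain. Values are scaled counts, meaning reads per gene after division by a size factor of the library, in which 1 read is worth from 0.861 to 1.08.

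From 23796792 to 28601962 reads per library fell in genes. The source label of the samples reads fin, but 20 marker genes of lens, retina, pancreas, muscle, liver, heart and brain were all present in every library. Their scaled counts ran from 18.8 (crygm3) to 336092 (mylpfa). The targeted gene zbtb24 went against the labels. It had scaled counts of 127 and 77.3 in the WT-labelled pools against 155, 175 and 282 in the Mutant-labelled pools (log2 fold change 0.98, SE 0.28, limma adjusted p = 0.0642). Which part of the gene these reads fell in is not given by the table, so groups are named here by their labels alone, and each pool is 1 library.

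The inducible β subunits were more abundant in the libraries labelled Mutant, by 1.42- to 2.28-fold, and 3 of the 5 passed the test. The catalytic subunits of the constitutive core that they can replace differed by 1.17-fold at most, and none of those passed. The activator genes psme1 and psme2 rose by 1.64- and 1.68-fold. Among the 46 constitutive members, 1 passed the test, while 3.32% of all genes tested were called higher.

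psmb8a, which encodes the inducible chymotrypsin-like subunit β5i, had scaled counts of 62.8 and 67.7 in WT 2 and WT 3. In Mutant 1, 2 and 3 it had 144, 150 and 157. The group means were 65.3 ± 3.47 (SD, n = 2) against 150 ± 6.08 (SD, n = 3). SDs of 2 and 3 libraries are imprecise measures of the spread between pools. psmb8a rose by 1.19 on the log2 scale (SE 0.16, limma adjusted p = 0.0109), or 2.28-fold with a 95% interval from 1.78 to 2.93. The call ended only without WT 2, where the log2 fold change was 1.14 (limma adjusted p = 0.0651; 0.00406 to 0.0651 over all alternatives).

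psmb9a encodes the inducible β1i subunit. It had scaled counts of 36.2 and 46.6 in the WT-labelled pools against 73.2, 88.3 and 72.7 in the Mutant-labelled pools. The groups did not overlap, and Mutant 2 was the highest library (log2 fold change 0.91, SE 0.21, limma adjusted p = 0.0412). The call ended without any single library other than WT 3, with log2 fold changes from 0.73 without WT 2 to 0.95 without Mutant 3. psmb12 encodes a fish subunit related to β1i. It had 33.6 and 49.8 scaled counts in the WT-labelled pools against 68.3, 89.3 and 77.8 in the Mutant-labelled pools. Here too the groups did not overlap and Mutant 2 was highest, but the gene narrowly missed the threshold (log2 fold change 0.92, SE 0.24, limma adjusted p = 0.0504). It passed with a pseudocount of 8 and with robust empirical Bayes, and its adjusted p ran from 0.0261 to 0.349 over the alternatives.

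psmb13a encodes a fish subunit related to the inducible trypsin-like subunit β2i. It had scaled counts of 31.9 and 48.7 in the WT-labelled pools against 70.3, 91.5 and 84.9 in the Mutant-labelled pools. All 3 libraries labelled Mutant lay above both labelled WT, and the gene rose by 1.03 on the log2 scale (SE 0.24, limma adjusted p = 0.039). This call also ended without any single library other than WT 3 (0.73 without WT 2 to 1.14 without Mutant 1). In the table this row carries the symbol psmb10 in lower case, while its identifier belongs to psmb13a. The row written in capitals is psmb10, the gene of β2i itself. It had 106 and 148 scaled counts in the WT-labelled pools against 196, 157 and 185 in the Mutant-labelled pools. The groups were separated by a narrow margin, WT 3 against Mutant 2, and the difference did not pass the test (log2 fold change 0.51, SE 0.19, limma adjusted p = 0.121).

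psmb8a, psmb9a, psmb12 and psmb13a lie together on chromosome 19 in the MHC region, and the spans of each overlap those of 2 or 3 of the others in the RefSeq annotation of GRCz12tu, a later assembly than the one reads were aligned to. Between 37 and 155 reads per library fell in each of these 4 genes. The sources do not say if reads were counted by strand, and the division of reads among them is uncertain. Summed over the 4 genes, scaled counts were 164 and 213 in the WT-labelled pools against 356, 419 and 392 in the Mutant-labelled pools. The sum, like each gene, was higher in every library labelled Mutant. psmb10 is on chromosome 4, psme1 on chromosome 24 and psme2 on chromosome 12.

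psme1 and psme2 encode the subunits of the 11S activator, also called PA28, a ring that docks on the core particle without ATP. psme1 had scaled counts of 430 and 566 in the WT-labelled pools against 727, 883 and 822 in the Mutant-labelled pools. It rose by 0.71 on the log2 scale (SE 0.14, limma adjusted p = 0.028). The lowest library labelled Mutant stood clear of the highest labelled WT. psme2 had 368 and 466 scaled counts in the WT-labelled pools against 635, 711 and 748 in the Mutant-labelled pools, and rose by 0.75 (SE 0.13, limma adjusted p = 0.0217). WT 2 was the lowest library for both genes, as it was for the other 5 inducible subunits. Both calls ended without WT 2 (0.51 for psme1 and 0.58 for psme2) and without Mutant 2 (0.65 and 0.73).

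**Figure D1:**
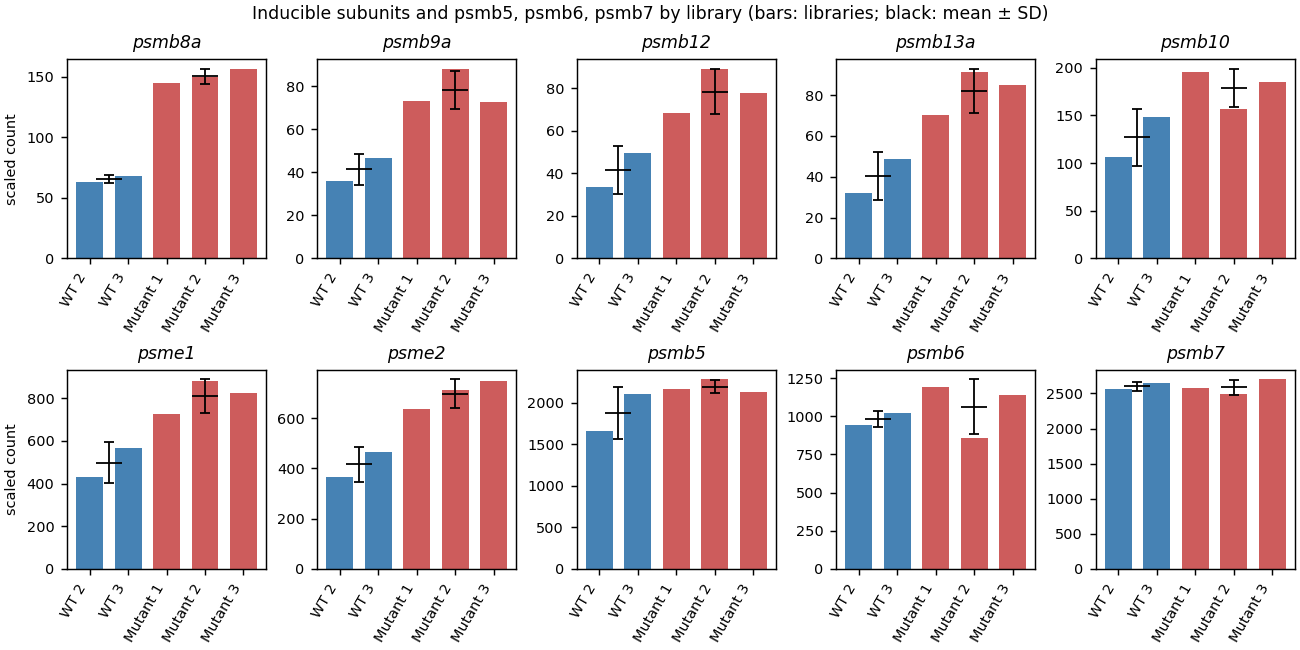
Scaled counts of the 7 inducible subunits and of psmb5, psmb6 and psmb7 in each library (one panel per gene, vertical axis in scaled counts from 0; coloured bars are libraries, black marks the mean ± SD of a group). For psmb8a the libraries labelled Mutant sit between 144 and 157 and those labelled WT at 62.8 and 67.7, while psmb7 lies between 2487 and 2704 in all 5 libraries.

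In all, 5 of the 7 inducible subunits passed the test in the higher direction and 0 in the lower. Of all 20307 genes tested, 3.32% were called higher and 2.68% lower. All 7 had groups that did not overlap, with the libraries labelled Mutant above, which was so for 22.3% of all genes. After rescaling the libraries to equal totals, 2.37% of all genes were called higher and 5.43% lower, and 14.7% had groups that did not overlap in the higher and 31.8% in the lower direction. The 7 inducible subunits still did not overlap on that scale. Their median log2 fold change was 0.91 (0.82 with equal totals), beside -0.0014 over all genes tested. In bulk RNA of whole larvae, fewer or more cells of a type cannot be told apart from less or more RNA per cell.

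The constitutive partners of the inducible β subunits are psmb5, psmb6 and psmb7, which carry the chymotrypsin-like, caspase-like and trypsin-like activities of the standard core. psmb5 had scaled counts of 1654 and 2099 in the WT-labelled pools against 2164, 2281 and 2125 in the Mutant-labelled pools. WT 3 lay just under the range of the libraries labelled Mutant, and WT 2 well below it (log2 fold change 0.23, SE 0.12, limma adjusted p = 0.229). psmb6 had 945 and 1022 scaled counts in the WT-labelled pools against 1194, 858 and 1136 in the Mutant-labelled pools (log2 fold change 0.10, SE 0.14, limma adjusted p = 0.696). Its lowest value was in Mutant 2, so the groups overlapped. psmb7 had 2558 and 2647 scaled counts in the WT-labelled pools against 2575, 2487 and 2704 in the Mutant-labelled pools. Its groups overlapped fully and its 95% interval ran from 0.863- to 1.15-fold (log2 fold change -0.0083, limma adjusted p = 0.965). After rescaling to equal totals its groups were separate in the lower direction, as were those of 31.8% of all genes.

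Setting each inducible subunit against its partner within a library compares them without the scaling between libraries. These are ratios of reads that are not corrected for transcript length, so only their change between libraries is read. Scaled counts of psmb8a were 3.80% and 3.23% of those of psmb5 in WT 2 and WT 3. They were 6.68%, 6.56% and 7.37% in Mutant 1, 2 and 3, a 1.94-fold higher ratio. For psmb9a against psmb6 the shares were 3.83% and 4.56% in the WT-labelled pools against 6.13%, 10.3% and 6.40% in the Mutant-labelled pools, or 1.75-fold higher. The share was highest in Mutant 2, the library with the highest psmb9a and the lowest psmb6. For psmb10 against psmb7 the shares were 4.14% and 5.60% in the WT-labelled pools against 7.61%, 6.32% and 6.84% in the Mutant-labelled pools, or 1.43-fold higher.

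Further pairs, added after the values were seen, gave ratios higher by 2.06-fold for psmb13a to psmb7 and by 1.76-fold for psmb12 to psmb6. Against psme3, which encodes the nuclear PA28γ activator, psme1 was higher by 1.38-fold and psme2 by 1.42-fold. In all 7 ratios the Mutant-labelled pools all lay above both WT-labelled ones. The exact two-sided permutation test gave p = 0.1 for 6 ratios and p = 0.2 for psmb12 to psmb6. With 2 libraries against 3 there are 10 splits and 0.1 is the smallest p they can give. Adjusted over the 7 ratios by Benjamini-Hochberg, these exact p-values were 0.117 and 0.2. A threshold of 0.05 could not be reached in this design, so the test does not bear on the ratios.

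**Figure D2:**
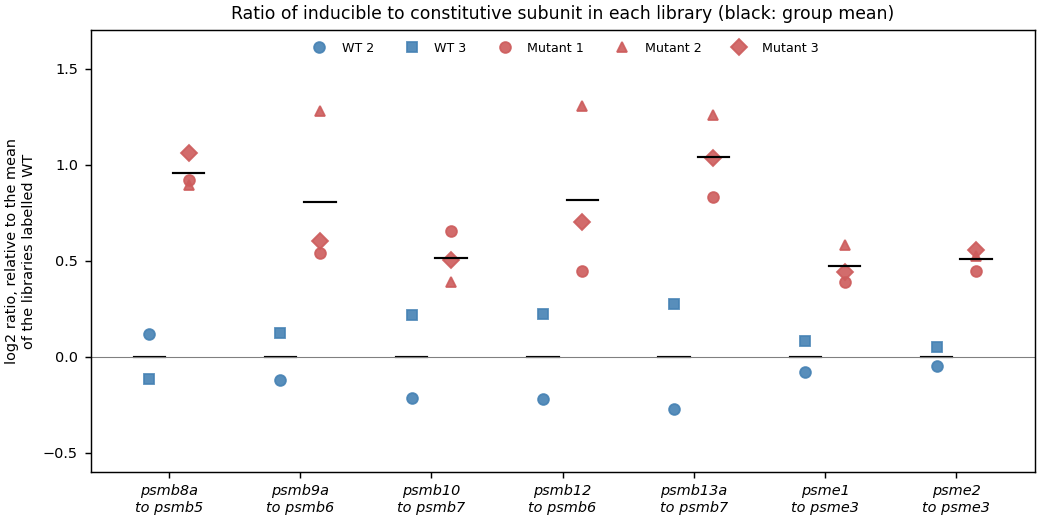
Ratio of each inducible subunit to a constitutive one in each library (vertical axis, log2 ratio relative to the mean of the libraries labelled WT; points are libraries, black lines are group means). All points of the libraries labelled Mutant lie above those labelled WT, with mean differences on the log2 scale from 0.47 (psme1 to psme3) to 1.04 (psmb13a to psmb7).

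Among the 46 constitutive members, 1 was called higher and 0 were called lower, beside 3.32% and 2.68% of all genes tested. At an unadjusted limma p under 0.05 there were 16 higher and 2 lower, where all genes tested had 13.1% higher and 13.6% lower. Their log2 fold changes were above 0 for 41 and below 0 for 5, beside 49.8% of all genes above 0. The median was 0.22, and 0.14 with equal totals. Groups did not overlap for 31 in the higher and 2 in the lower direction, beside 22.3% and 22.7% of all genes. With equal totals this held for 15 and 3, beside 14.7% and 31.8% of all genes. Thus most constitutive members had somewhat higher values in the libraries labelled Mutant, by amounts that for all but 1 did not pass the test gene by gene.

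The constitutive member that passed was psma6l, a fish paralogue of the α-ring subunit gene psma6. It had scaled counts of 140 and 180 in the WT-labelled pools against 270, 229 and 261 in the Mutant-labelled pools. It was lower in both libraries labelled WT than in any labelled Mutant (log2 fold change 0.67, SE 0.16, limma adjusted p = 0.0412). It kept its call under every other setting of scaling and filtering tried, and lost it without any single library other than WT 3 (limma adjusted p from 0.0215 to 0.293 over the alternatives). The paralogues psma6a and psma6b had log2 fold changes of 0.37 and 0.22 and were not called (limma adjusted p = 0.075 and 0.25).

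The α ring forms the gate of the core particle. Of its 9 genes, 8 had log2 fold changes above 0, with a median of 0.30, from -0.031 for psma1 to 0.67 for psma6l. The 7 constitutive β genes had a median of 0.22, from -0.0083 for psmb7 to 0.33 for psmb3, a non-catalytic β subunit. psmb3 had scaled counts of 1572 and 1770 in the WT-labelled pools against 2003, 2131 and 2144 in the Mutant-labelled pools, and was not called (limma adjusted p = 0.0765).

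The ATPases of the base unfold substrates and thread them into the core. Their 7 genes were the most alike in fold change among the larger roles, from 0.15 for psmc1b to 0.37 for psmc1a on the log2 scale, with a median of 0.23. Groups did not overlap for 6 of the 7, and for 4 with equal totals (22.3% and 14.7% of all genes), and none was called. The 12 non-ATPase genes had a median of 0.17. The highest was psmd8, a subunit of the lid, with 1344 and 1574 scaled counts in the WT-labelled pools against 1798, 2103 and 1917 in the Mutant-labelled pools (log2 fold change 0.41, SE 0.11, limma adjusted p = 0.0584). It came closest to the threshold among the constitutive members that were not called. The lowest was psmd3, another lid subunit, at -0.14, where Mutant 2 had 1408 scaled counts and the other 4 libraries from 1901 to 2068. psmd14, which encodes the deubiquitinase of the lid, had a log2 fold change of 0.11, and the genes of the ubiquitin receptor, psmd4a and psmd4b, had 0.14 and 0.23.

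Of the assembly factors, none was called. The 4 core chaperones, psmg1 to psmg4, pair up to build the α ring, and their log2 fold changes ran from 0.15 for psmg3 to 0.36 for psmg4. The groups were separate for all 4, and for 1 with equal totals, beside the same shares of all genes (limma adjusted p from 0.141 to 0.493). The base chaperones psmd10, psmd9 and psmd5 had 0.28, 0.24 and 0.050. psmf1, which encodes the proteasome inhibitor PI31, had 0.086 with overlapping groups.

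Of the other activators, those encoded by the psme4 genes had lower values in the libraries labelled Mutant. psme4a and psme4b encode PA200, a large single-chain activator found on nuclear proteasomes. psme4a had 2449 and 1398 scaled counts in the WT-labelled pools against 1250, 937 and 1348 in the Mutant-labelled pools. WT 2 stood far above the other 4 libraries, which lay between 937 and 1398. The log2 fold change was -0.67 (SE 0.22, limma adjusted p = 0.0947). It was -1.07 without WT 3, which passed the test, and -0.26 without WT 2 (limma adjusted p from 0.0119 to 0.577 over the alternatives). psme4b had 2761 and 2845 scaled counts in the WT-labelled pools against 2490, 2340 and 2481 in the Mutant-labelled pools (log2 fold change -0.20, limma adjusted p = 0.186). These were the only 2 of the 54 tested genes whose groups were separated in the lower direction, which was so for 22.7% of all genes. With equal totals there were 3, psmb7 being the other, beside 31.8% of all genes. psme3 had a log2 fold change of 0.24.

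**Figure D3:**
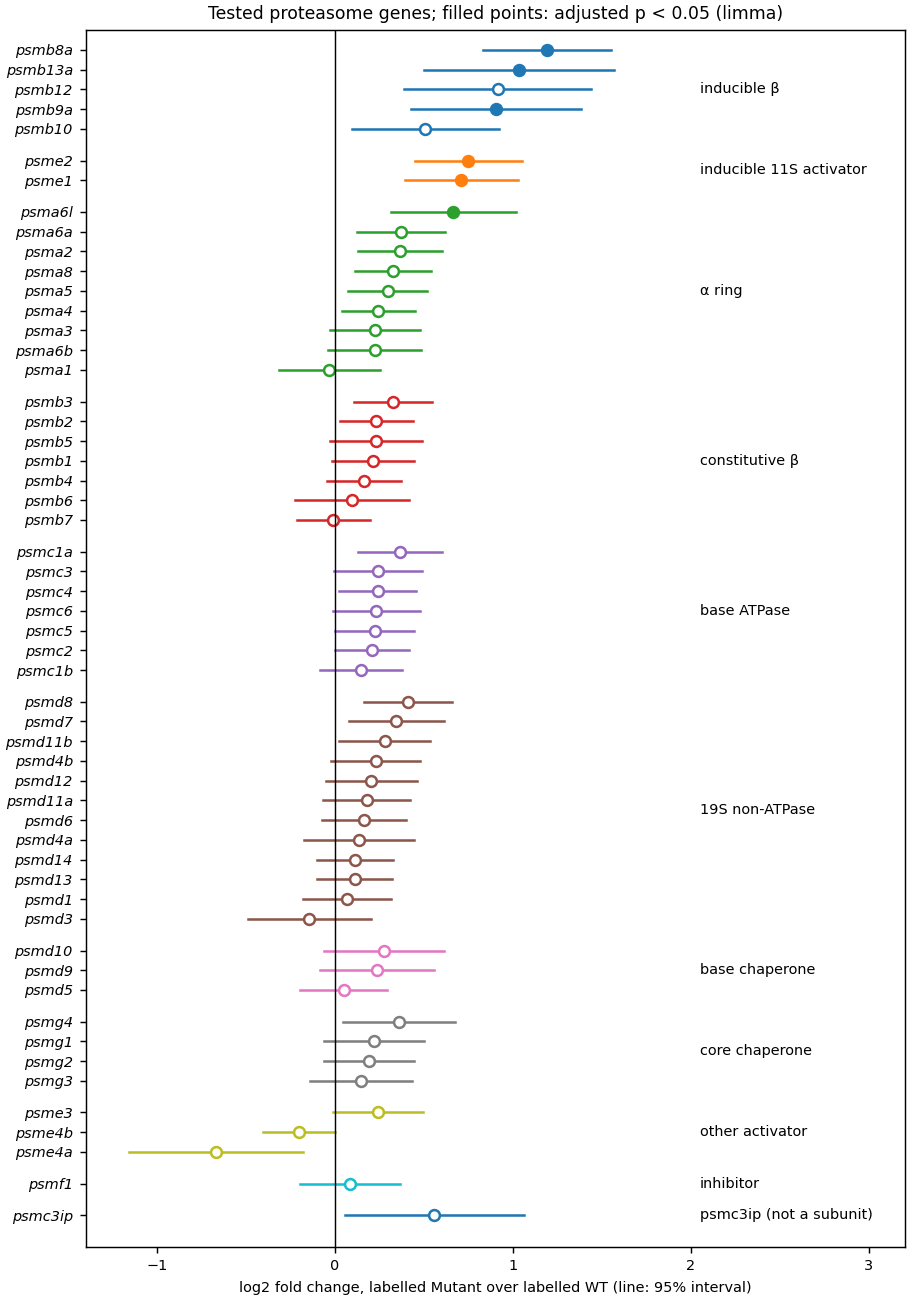
Log2 fold change of the 54 tested genes, libraries labelled Mutant over those labelled WT (horizontal axis; lines are 95% intervals, rows are ordered by role). Filled points mark the 6 genes called by limma, which are psmb8a, psmb13a, psmb9a, psme2, psme1 and psma6l, and psme4a is the lowest point at -0.67.

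Finally, psmb11b had from 2 to 6 reads per library and was not tested, with overlapping groups. psmc3ip, which is not a subunit, had 53.4 and 77.3 scaled counts in the WT-labelled pools against 94.0, 113 and 80.8 in the Mutant-labelled pools. It was not called (log2 fold change 0.56, SE 0.23, limma adjusted p = 0.152).

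Within the groups, WT 2 stood apart. It was the lowest of the 5 libraries for all 7 inducible subunits and for 34 of the 46 constitutive members. Over all 20307 genes tested, WT 2 was the lowest for 6104 and the highest for 6392. WT 3 was above WT 2 for 7 of 7 and 39 of 46, by a median of 0.40 and 0.17 on the log2 scale, beside 9871 of all genes tested. Mutant 2 was the highest library for 4 of the 7 inducible and 21 of the 46 constitutive genes, and the lowest for 6 constitutive ones, among them psmb6, psmd3 and psma1. Over all genes tested, Mutant 2 was the highest for 4972 and the lowest for 5288. Over the constitutive members, that gap of 0.17 between the 2 libraries labelled WT stands beside a median of 0.22 between the groups.

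Calls depended on single libraries. Without WT 2, limma called 0 of the members (10 higher and 0 lower at an unadjusted p under 0.05), and the inducible median was 0.64, while 0.153% of all genes were called higher. Without WT 3, 13 were called higher, all 7 inducible subunits and 6 constitutive members, and psme4a was called lower, while 6.49% of all genes were called higher and 5.47% lower. Without Mutant 2, psmb8a alone was called (0.236% of all genes were higher). Without Mutant 1 or Mutant 3, psmb8a, psme1 and psme2 were called (1.18% and 3.26% of all genes were higher). Because the groups did not overlap for any of the 7 inducible subunits, their log2 fold changes had to stay above 0 in these fits. These values ran from 0.27 (psmb10 without WT 2) to 1.33 (psmb13a without WT 3).

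**Figure D4:**
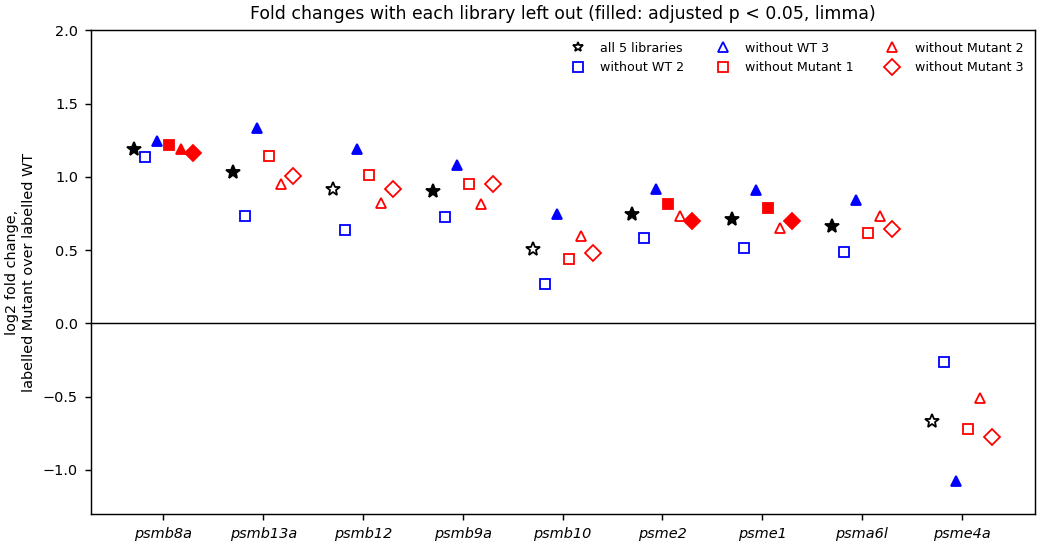
Log2 fold change of 9 genes with all 5 libraries and with each library left out (vertical axis, libraries labelled Mutant over those labelled WT; symbols give the library left out, and filled symbols are past limma's adjusted p of 0.05). psmb8a stays between 1.14 and 1.24, while psme4a moves from -0.26 without WT 2 to -1.07 without WT 3.

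Partners of the proteasome outside the psm symbols showed no calls. Of 18 such genes, 0 were called, 4 in the higher and 0 in the lower direction had an unadjusted limma p under 0.05 (13.1% and 13.6% of all genes), and the median log2 fold change was 0.19. ubb, a polyubiquitin gene, had scaled counts of 4000.5 and 4477 in the WT-labelled pools against 5206, 6641 and 5500.5 in the Mutant-labelled pools (log2 fold change 0.44, limma adjusted p = 0.0577). Its groups were separate, with Mutant 2 highest. pomp, which encodes the factor that matures the β rings, had a log2 fold change of 0.34 (limma adjusted p = 0.0939). nfe2l1a and nfe2l1b, counterparts of the factor that raises proteasome gene transcription in mammals, had 0.038 and -0.15 with overlapping groups.

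Of 16 genes of the MHC class I loading route, which takes up the peptides the proteasome makes, 2 were called higher and 0 lower, beside 3.32% and 2.68% of all genes. All 16 had log2 fold changes above 0 (49.8% of all genes), with a median of 0.25, and 0.17 with equal totals. Groups overlapped for 7 and were separate in the higher direction for 9, beside 22.3% of all genes. With equal totals 8 were separate in that direction, beside 14.7%. tapbpl, which encodes a tapasin-related peptide editor, had 100.7 and 114.3 scaled counts in the WT-labelled pools against 167, 199 and 218 in the Mutant-labelled pools. It rose by 0.85 (limma adjusted p = 0.0273), with both libraries labelled WT below all of those labelled Mutant. The class I gene mhc1zba rose by 0.47 (limma adjusted p = 0.0317), and the peptide transporter gene tap1 had 0.50 and was not called (limma adjusted p = 0.0731).

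In mammals, IRF1 drives the inducible subunit genes after interferon gamma. Its zebrafish counterpart irf1b had 333 and 435 scaled counts in the WT-labelled pools against 619.4, 619.9 and 674.8 in the Mutant-labelled pools. It rose by 0.74 (limma adjusted p = 0.0221), with separate groups, while irf1a had a log2 fold change of 0.90 and was not called (limma adjusted p = 0.104). socs1a, which encodes a feedback inhibitor of interferon signalling, fell by 1.26 on the log2 scale (limma adjusted p = 0.0158). It had scaled counts of 582 and 350 in the WT-labelled pools against 198, 173 and 194 in the Mutant-labelled pools. Without WT 2 and again without Mutant 2, none of irf1b, socs1a, tapbpl and mhc1zba was called, with log2 fold changes of 0.55 and 0.76 for irf1b.

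Immune cells express the inducible subunits without stimulation, so their markers are given beside these values. Of 22 markers of leukocytes, macrophages, neutrophils and lymphocytes, leaving out cpa5, which the pancreas also expresses, 1 was called higher, namely mpeg1.1, a macrophage gene (log2 fold change 0.67, limma adjusted p = 0.0209). It was not called without WT 2 or without Mutant 2 (0.62 and 0.63). None was at 0, and 21 of the 22 had log2 fold changes above 0, with a median of 0.37, where 3.32% of all genes were called higher and 49.8% lay above 0. Their summed scaled counts were 5225 and 5808 in the WT-labelled pools against 8302, 6979 and 6384 in the Mutant-labelled pools. The sum was thus higher in every library labelled Mutant. It was highest in Mutant 1, as were the sums of the leukocyte, neutrophil and lymphocyte markers. In Mutant 3, however, the leukocyte and lymphocyte sums, 2051 and 461, lay below those of WT 3, 2088 and 475. Gene by gene, groups overlapped for 13 of the 22 markers. They were separate in the higher direction for 9, beside 22.3% of all genes, and for 7 with equal totals, beside 14.7%. At an unadjusted limma p under 0.05 there were 9 higher and 0 lower, beside 13.1% and 13.6% of all genes. By cell type, median log2 fold changes were 0.44 (leukocytes), 0.54 (macrophages), 0.18 (neutrophils without cpa5) and 0.35 (lymphocytes). In that order, groups were separate in the higher direction for 3 of 6, 4 of 6, 0 of 4 and 2 of 6. The 6 macrophage markers summed to 1292 and 1235 in the WT-labelled pools against 1672, 1530 and 1771 in the Mutant-labelled pools, highest in Mutant 3. The inducible subunits summed to 1067 and 1393 in the WT-labelled pools against 1915, 2170 and 2147 in the Mutant-labelled pools. Of these, the 5 inducible β genes made up 270 and 361 against 552, 576 and 577. Of the 20 markers of tissues outside the fin, 2 were called higher and 3 lower, beside 3.32% and 2.68% of all genes. Their groups did not overlap for 7 in the higher and 8 in the lower direction, beside 22.3% and 22.7% of all genes. The liver genes tfa and apoa2 rose by 1.07 and 0.48 on the log2 scale (limma adjusted p = 0.0239 and 0.0499). tfa was lowest in WT 2 and highest in Mutant 2, as were psmb9a, psmb12, psmb13a and psme1, but not psmb8a, psmb10 and psme2. Of all 20307 genes tested, WT 2 was the lowest for 6104 and Mutant 2 the highest for 4972. The cone gene gnat2 fell by 0.74 and the lens genes crygm2d1 and cryba4 fell by 0.44 and 0.39 (limma adjusted p = 0.0209, 0.0496 and 0.0469). The part of immune cells or of these tissues in the values of the inducible subunits was not tested.

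**Figure D5:**
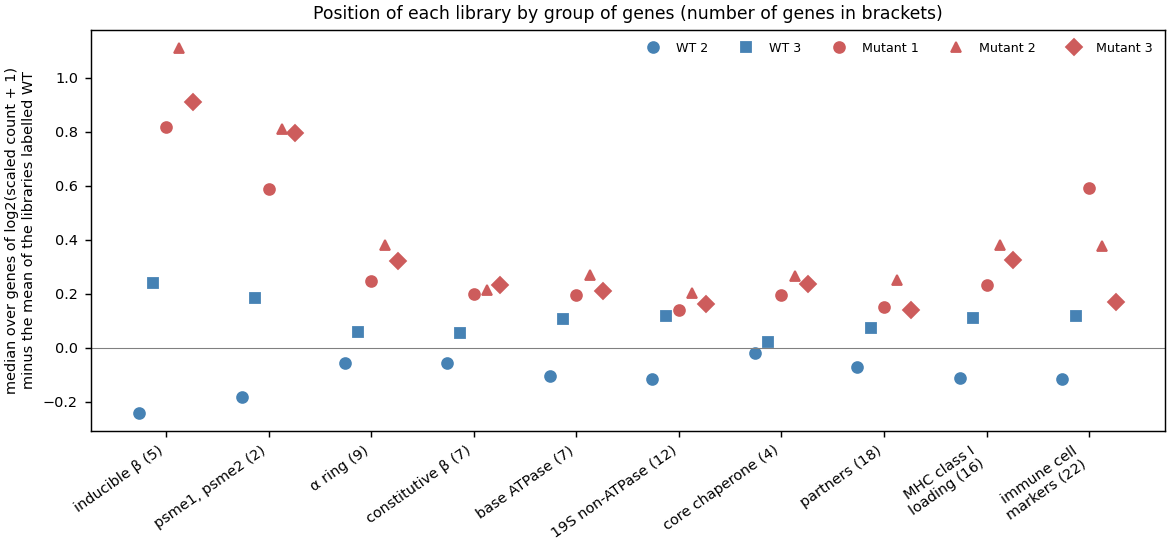
Position of each library for 10 groups of genes (vertical axis, median over the genes of a group of log2(scaled count + 1) minus the mean of the libraries labelled WT; points are libraries, and the number of genes is in brackets). For the 5 inducible β genes the libraries labelled Mutant lie at 0.82, 1.11 and 0.91, and for the 22 immune cell markers at 0.59, 0.38 and 0.17.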

How the data were processed

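Per the labels, stranded paired-end libraries were made from poly(A) RNA, and the series text gives whole larvae as its source. The authors aligned reads to danRer7 with STAR, counted them per gene with HTSeq 0.5.3 and scaled them with DESeq. Strand use in counting is not given in the sources used here. As deposited, each value is a signal, namely the scaled count plus 1. After subtracting 1, all values were whole multiples of 1 step within a tolerance of 0.1 read. Gene names were checked against a table that held 93.7% of identifiers, and chromosomes came from the RefSeq annotation of GRCz12tu.

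Log2(scaled count + 1) was tested with limma 3.58.1 (R 4.3.3), two-sided, with an intensity trend, over 20307 genes with a mean of at least 10. P-values were adjusted by Benjamini-Hochberg over all of them, and a gene was called at 0.05. Fold changes are on this scale, which understates those of low genes. Nothing in the labels gives separate clutches, so p-values measure the spread between these pools. The test was checked on simulated data whose planted changes were larger than those of any member. That check therefore does not measure how well changes of the members' size are found.

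The members and lists were chosen with earlier results of these data known. Values per library are given for the inducible subunits, psmb5, psmb6, psmb7 and called members, and the others by role with their extremes. Values per library of psmb3, psmd8, psmd3, psme4a, psme4b, psmc3ip and of the genes outside the psm symbols were added after seeing them. Symbols matched were 18 of 20 partners, 18 of 20 class I loading genes (in 16 rows) and 23 of 27 immune markers. From a list of interferon route genes, irf1a, irf1b and socs1a are given, and an item of that list is not reported here. Alternatives were other pseudocounts (0.5, 8), no filter, a minimum mean of 50, equal totals, quantile normalization, robust empirical Bayes, the omission of each library and, added later, a block by column number.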

Additional observations from a re-analysis of the deposited data

How the results depend on the processing

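The WT-labelled columns are numbered 2 and 3 while the sample titles are WT1A and WT2A, so pairing rests on column numbers alone. A replicate block by column number, added after seeing the data, called 5 members higher (5 inducible subunits and 0 constitutive members) and 1 member lower, the constitutive psme4a. It ended the calls of psmb9a and psma6l, added psmb12, psme4a and zbtb24 (adjusted p = 0.0114), and turned nfe2l1a (-0.14). The gaps between columns 3 and 2 of both groups did not run together across 20307 genes (r = -0.16). Each gap rests on single libraries, so this cannot tell whether samples of the same number share anything else. Count tests (voom, edgeR, DESeq2) were not run. Over 69 genes, 474 of 482 comparisons under other settings kept their direction and side of the threshold, 4 passed it newly and 4 turned direction. The latter were psmd1 (-0.018 with equal totals, -0.0036 with quantile normalization), psmd5 (-0.035) and nfe2l1a (-0.046), both with equal totals. The median of the constitutive members was 0.14 with equal totals. Leaving out a library kept 296 of 345, ended 27 calls, added 12 and turned 10 directions. The ranges were 0 to 13 members, 0 to 7 inducible subunits and 0 to 6 constitutive members called higher, 0 to 1 member and 0 to 1 constitutive member called lower, medians of 0.64 to 1.08 for inducible and 0.12 to 0.32 for constitutive genes, and log2 ratios of 0.84 to 1.08 (psmb8a to psmb5), 0.57 to 0.94 (psmb9a to psmb6) and 0.30 to 0.73 (psmb10 to psmb7). The directions that turned were those of psmd1 (-0.051 to 0.18), psmd3 (-0.24 to 0.032), psmf1 (-0.0095 to 0.18), psmb7 (-0.040 to 0.020), psmd4a (-0.064 to 0.34), psma1 (-0.10 to 0.091) and nfe2l1a (-0.14 to 0.19). The cause of these changes was not tested. Where 1 library labelled WT was left, its spread was taken from those labelled Mutant. With 37 to 85 reads per library, psmb9a, psmb12 and psmb13a had the least precise values of the inducible genes.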
